A study of Mus musculus with 6 samples.

Results

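The guanylate-binding proteins (GBPs) of the mouse are encoded by a family of Gbp genes, of which Gbp2, Gbp3, Gbp4, Gbp5, Gbp6, Gbp7, Gbp8, Gbp9 and Gbp10 are described here in the parietal bone of newborn mice. These 9 genes were selected on their counts, which were higher in the libraries labelled OsxCre;Stat3fl/fl, described below. The differences between the genotypes are therefore given for them as a description, with no test. They were 9 of the 44556 gene rows of the deposited tables, and all 9 were among the 15600 genes that passed the filter on low counts. Gbp2 passed that filter only through the OsxCre;Stat3fl/fl libraries, and Gbp10 was over the filter level in all but 1 of the control libraries. The other 7 members were over it in all 3 controls.

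The samples were parietal bones of C57BL/6 newborns, sequenced as bulk RNA. The 3 control libraries (OsxCre) came from mice that carried an Osterix-driven Cre recombinase, and the 3 OsxCre;Stat3fl/fl libraries came from mice with the same Cre and 2 floxed Stat3 alleles. Since both groups carried the Cre, an effect of the transgene itself was common to them. Osterix (Sp7) is a transcription factor of pre-osteoblasts, and the Cre is described as acting mainly in osteoblast precursors, while the bulk bone also held other cell types. The study's methods describe littermates, with as many mice as libraries in each group.

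GBPs are large GTPases of the dynamin superfamily and are among the genes most strongly induced by interferon-gamma in many cell types. The cytokine signals through the kinases JAK1 and JAK2, and its target genes carry gamma-activated sites (GAS) and interferon-stimulated response elements (ISRE). IRF1 binds ISRE, as does the complex of type I interferon signalling that holds STAT2 and IRF9. The proteins gather on the vacuoles of intracellular parasites and bacteria, together with the immunity-related GTPases, and help to break these membranes and to expose microbial ligands to inflammasomes. GBP2 and GBP5 carry a C-terminal lipid (prenyl) anchor.

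The members lay in 2 gene clusters. On chromosome 3 of the GRCm38.p6 assembly (RefSeq), Gbp5 (142496934 to 142522344), Gbp7 (142530336 to 142550151), Gbp3 (142560016 to 142573213) and Gbp2 (142620663 to 142638008) spanned 141 kb on the forward strand. On chromosome 5, Gbp8 (105012513 to 105053609), Gbp9 (105076464 to 105110357), Gbp4 (105115767 to 105139586), Gbp10 (105215699 to 105239533) and Gbp6 (105270702 to 105295871) spanned 283 kb. The tables held 2 more rows of the family that are not members. Gbp2b lies between Gbp3 and Gbp2, and Gbp11, annotated as a transcribed pseudogene, lies beyond Gbp6.

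Promoters are shown for the 4 chromosome 3 members, since interferon-activated factors are known to act on Gbp genes through motifs near the start. The 250 bases before the RefSeq start are given 5′ to 3′ on the gene's strand, with matches to the ISRE core (GAAA and GAAA set 2 free bases apart) or GAS (TTCNNNGAA) in capitals, both searched on both strands in a window that also took in the 50 bases from the start on. The ISRE cores appear as their reverse complement.
Gbp2, chr3:142620413-142620662: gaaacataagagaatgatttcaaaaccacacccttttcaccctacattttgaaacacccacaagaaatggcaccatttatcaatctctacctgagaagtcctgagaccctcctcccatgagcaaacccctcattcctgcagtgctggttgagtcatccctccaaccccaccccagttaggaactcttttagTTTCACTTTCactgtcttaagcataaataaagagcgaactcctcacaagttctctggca
Gbp3, first start, chr3:142559794-142560043: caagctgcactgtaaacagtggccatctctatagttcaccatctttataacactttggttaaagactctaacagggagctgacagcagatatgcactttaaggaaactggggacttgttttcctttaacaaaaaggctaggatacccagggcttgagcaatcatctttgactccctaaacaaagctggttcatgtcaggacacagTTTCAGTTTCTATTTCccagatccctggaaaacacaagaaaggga
Gbp5, chr3:142496684-142496933: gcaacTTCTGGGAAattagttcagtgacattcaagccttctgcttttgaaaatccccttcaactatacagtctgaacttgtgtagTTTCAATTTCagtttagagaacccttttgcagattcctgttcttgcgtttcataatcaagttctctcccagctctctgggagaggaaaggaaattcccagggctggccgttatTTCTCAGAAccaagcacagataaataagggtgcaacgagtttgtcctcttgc
Gbp7, chr3:142530086-142530335: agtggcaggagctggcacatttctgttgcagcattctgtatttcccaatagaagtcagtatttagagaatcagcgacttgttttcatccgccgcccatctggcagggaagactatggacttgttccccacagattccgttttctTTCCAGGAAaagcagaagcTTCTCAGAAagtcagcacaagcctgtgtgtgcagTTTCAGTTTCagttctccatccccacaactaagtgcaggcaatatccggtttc
The ISRE core stood 59 to 50 bases before the start of Gbp2 and 53 to 44 bases before that of Gbp7. Gbp3 held 2 overlapping cores, at 45 to 36 and 39 to 30 bases, before the first of its 2 annotated transcript starts, at 142560044, which lies inside the RefSeq gene record that begins at 142560016, and the window of its second start held neither motif. In Gbp5 the core lay farther out, at 165 to 156 bases. GAS matches were found in Gbp5 (245 to 237 and 52 to 44 bases before the start) and in Gbp7 (106 to 98 and 87 to 79 bases). For comparison, 3.44% of all 32851 RefSeq promoter windows of this length held the ISRE core and 8.30% held GAS. The promoters of Gbp4, Gbp6, Gbp8, Gbp9 and Gbp10 were not analysed here.

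Before the members, the libraries were checked. They held 8193651 to 12080044 counts, and every OsxCre;Stat3fl/fl library held fewer than every OsxCre library. Stat3 itself was at 135 to 150 CPM (counts scaled to library size) in OsxCre and 153 to 155 CPM in OsxCre;Stat3fl/fl (log2 fold change 0.12, SE 0.07, adjusted p = 0.442, edgeR, and -0.26 where the libraries were not scaled). Its counts thus do not show the deletion. The loxP sites flank only some of the exons, and neither single exons nor cell types were counted separately here. The genotypes and every direction below therefore rest on the labels alone. The study describes male newborns, whereas Xist was at 895 to 1074 CPM in all 6 libraries, Ddx3y and Kdm5d had no count, and Eif2s3y and Uty had at most 1 count in a library. Osteoblast genes were present in both groups, with 8 of them, of which Col1a1 supplied most counts, summing to 12581 to 16861 CPM in OsxCre and 10995 to 14042 CPM in OsxCre;Stat3fl/fl. Of the 8, 1 fell, which was Ibsp, a matrix protein gene (log2 fold change -0.66, adjusted p = 0.0213, edgeR).

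All 9 members were higher in OsxCre;Stat3fl/fl, and for each of them the lowest OsxCre;Stat3fl/fl library lay above the highest control. Such a separation was seen in the same direction for 10.8% of all genes tested, and the choice of the members fixed it for them. The summed CPM of the family was 62.0, 47.2 and 68.1 in the OsxCre libraries and 165, 137 and 165 in the OsxCre;Stat3fl/fl libraries. The family as a whole was thus 2.63 times higher (59.1 ± 10.7 against 155 ± 16.1 CPM, mean ± SD, n = 3 each). The ratio was close in both clusters, at 2.55 for the 4 members on chromosome 3 and 2.69 for the 5 on chromosome 5. In bulk bone, more cells that express a gene and more RNA per cell cannot be told apart.

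Among the chromosome 3 members, Gbp2, which is recruited to parasite vacuoles, had the fewest counts and the highest ratio. There were 7, 1 and 5 counts in the OsxCre libraries (0.666, 0.0991 and 0.420 CPM) and 23, 21 and 32 counts in the OsxCre;Stat3fl/fl libraries (2.76, 2.57 and 3.74 CPM). The fitted log2 fold change was 2.89 (SE 0.48), and it ranged from 2.46 without OsxCre library 2 to 3.43 without OsxCre library 1. With so few counts in OsxCre, the size of this difference is uncertain.

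Gbp3 was read from many more counts than Gbp2. Its levels were 9.71, 9.42 and 13.9 CPM in OsxCre and 33.9, 27.3 and 35.0 CPM in OsxCre;Stat3fl/fl (log2 fold change 1.54, SE 0.18). Gbp7, a family member linked to the assembly of the phagocyte oxidase, stood at 10.2, 9.91 and 12.4 CPM in OsxCre and at 21.5, 21.7 and 23.3 CPM in OsxCre;Stat3fl/fl (log2 fold change 1.03, SE 0.13). The spread between the OsxCre;Stat3fl/fl libraries was small for Gbp7. Gbp5, linked to NLRP3 inflammasome activation, was at 1.71, 1.78 and 2.10 CPM in OsxCre and 3.48, 4.17 and 5.26 CPM in OsxCre;Stat3fl/fl (log2 fold change 1.20, SE 0.26).

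On chromosome 5, Gbp9 was at 18.8, 11.9 and 18.6 in OsxCre and 35.2, 31.6 and 37.3 in OsxCre;Stat3fl/fl (log2 fold change 1.07, SE 0.18). Gbp4 had a larger difference, with 6.85, 3.97 and 8.14 CPM in OsxCre and 27.4, 18.8 and 23.7 CPM in OsxCre;Stat3fl/fl (log2 fold change 1.87, SE 0.26). Both genes were lowest in OsxCre library 2. Gbp8 had the smallest difference and the narrowest gap between the groups of the 9 members, with 2.95, 1.88 and 3.44 CPM in OsxCre and 5.52, 4.54 and 4.21 CPM in OsxCre;Stat3fl/fl (log2 fold change 0.78, SE 0.28).

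Gbp6 and Gbp10 have to be read together. Of the 50-base stretches of the Gbp6 transcripts in the GENCODE M1 annotation, 75.3% also occurred in Gbp10, and 76.1% of those of Gbp10 occurred in Gbp6, so that how the counting divided reads between them is uncertain. Gbp6 was at 9.42, 7.14 and 8.48 CPM in OsxCre and 28.7, 21.8 and 28.5 CPM in OsxCre;Stat3fl/fl (log2 fold change 1.66, SE 0.16), and Gbp10 at 1.71, 1.09 and 0.504 CPM against 6.48, 4.41 and 3.63 CPM (log2 fold change 2.14, SE 0.43). Their sum does not depend on that division, though it would be lowered if shared reads were left out of the counts, which is not known. The sum was 11.1, 8.23 and 8.98 CPM in OsxCre and 35.2, 26.2 and 32.2 CPM in OsxCre;Stat3fl/fl, a ratio of 3.30. The other 7 members without this pair had a ratio of 2.503. Fewer stretches were shared by Gbp8 (18.3%), Gbp4 (12.2%), Gbp9 (9.07%), Gbp3 (3.92%), Gbp7 (2.29%) and Gbp2 (2.03%) with any other Gbp gene, and none by Gbp5.

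**Figure D1:**
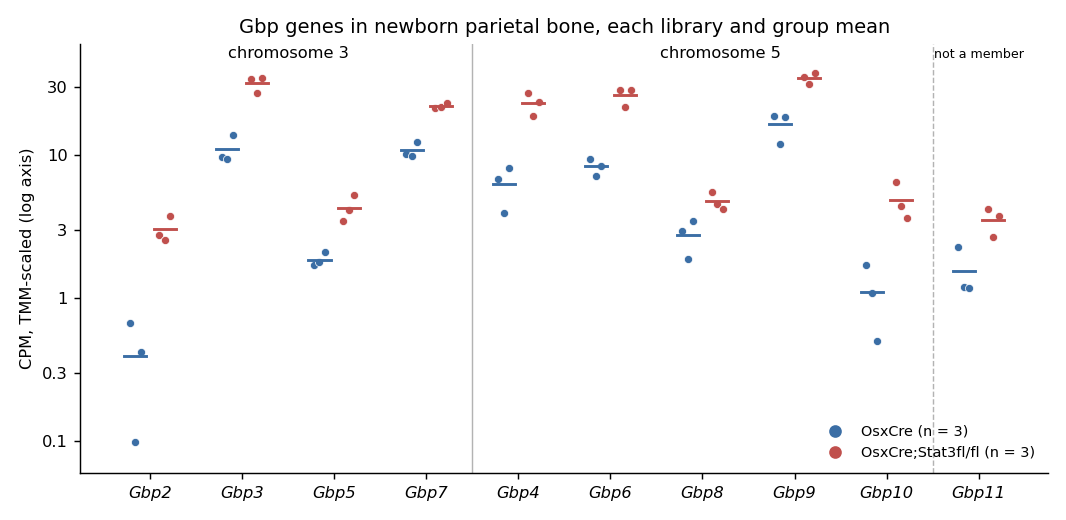
Level of each Gbp gene in CPM (TMM-scaled, log axis) in the 3 OsxCre (blue) and 3 OsxCre;Stat3fl/fl (red) libraries, with bars at the group means. The red points lie above the blue points for every gene, and among the members the distance is widest for Gbp2 and narrowest for Gbp8. Gbp11 is shown for comparison and is not a member.

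Fitted over all genes, the log2 fold changes of the members ran from 0.78 to 2.89 with a median of 1.54, whereas the median over all 15600 genes was -0.004. All 9 exceeded a fitted fold of 1.5, as did 5.12% of all genes in this direction. The median was 1.37 for the chromosome 3 members and 1.66 for those on chromosome 5. Of the family rows outside the list, Gbp11 had 24, 12 and 14 counts in OsxCre and 35, 22 and 32 counts in OsxCre;Stat3fl/fl (log2 fold change 1.19, SE 0.34, adjusted p = 0.149, edgeR). Its libraries did not overlap in CPM, as for 10.8% of all genes tested in this direction, and 34.5% of its 50-base stretches occurred in other Gbp genes. Gbp2b had no count in OsxCre and 4, 1 and 0 counts in OsxCre;Stat3fl/fl, too few to be tested.

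Compared per kilobase of exon, which allows levels of different genes to be set side by side, the members fell into tiers. In OsxCre, Gbp9 (4.53 ± 1.09 CPM per kb) and Gbp3 (3.40 ± 0.780) led and overlapped between libraries. A middle tier followed without a gap inside it, formed by Gbp7 (1.95 ± 0.248), Gbp6 (1.93 ± 0.266), Gbp4 (1.39 ± 0.471) and Gbp8 (1.06 ± 0.306). Gbp5 (0.463 ± 0.0509) stood alone below these, and Gbp10 (0.255 ± 0.140) and Gbp2 (0.157 ± 0.113) overlapped at the bottom (SD, n = 3 throughout). In OsxCre;Stat3fl/fl the leading pair was again Gbp3 (9.90 ± 1.27) and Gbp9 (9.55 ± 0.790), which overlapped. Gbp6 (6.11 ± 0.910), Gbp4 (5.13 ± 0.954) and Gbp7 (3.99 ± 0.175) made up the second tier, each overlapping its neighbour. Gbp8 (1.83 ± 0.263) was separate from both sides, and Gbp2 (1.20 ± 0.249), Gbp10 (1.12 ± 0.342) and Gbp5 (1.07 ± 0.223) could not be ordered. The places of Gbp6 and Gbp10 in these orders depend on how reads were divided between them and on whether shared reads were counted.

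The make-up of the family signal shifted with these unequal differences. Gbp9 supplied the largest share of the summed CPM, a share of reads that longer transcripts raise, in every library, on average 27.7% in OsxCre and 22.4% in OsxCre;Stat3fl/fl. The mean share of Gbp7 was 18.6% and 14.3% respectively. Gbp4 supplied 10.5% and 14.9%, Gbp6 14.3% and 16.9%, and Gbp3 18.7% and 20.6%. Gbp8 (4.60% and 3.07%), Gbp5 (3.21% and 2.78%), Gbp10 (1.94% and 3.12%) and Gbp2 (0.633% and 1.94%) were minor in both groups. The libraries of the groups overlapped in the shares of Gbp3, Gbp5 and Gbp10 and did not overlap in those of the other 6 members. The shares of a library add up to the whole, so that they are not independent, and they come from the values on which the members were chosen. How often shares of other genes separate in this way was not counted, and the shift was not tested. The separate shares of Gbp6 and Gbp10 are as uncertain as the division and the counting of their shared reads.

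**Figure D2:**
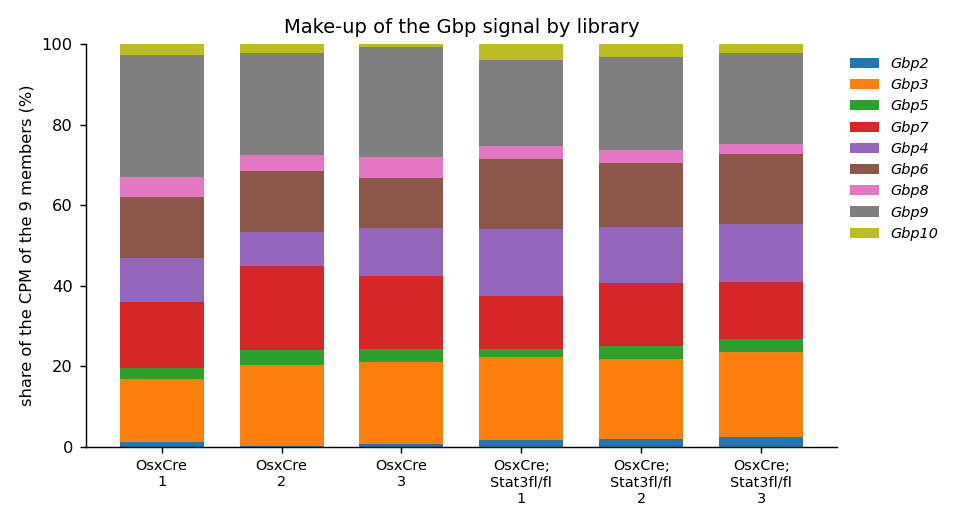
Share of each member in the summed CPM of the 9 members (percent, stacked bars) in each library. Gbp9 holds the largest share in all 6 libraries, and the share of Gbp4 is 8.40 to 11.96% in OsxCre and 13.7 to 16.6% in OsxCre;Stat3fl/fl.

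Within a genotype, many members had their lowest level in the same library. OsxCre library 2 had the lowest level of 7 of the 9 members among the controls, and OsxCre library 3 the highest level of 5. Among the OsxCre;Stat3fl/fl libraries, library 2 was lowest for 5 members and library 3 highest for 5. How often other genes had their lowest or highest level in these libraries was not counted, so these numbers have no share to be set against. The coefficient of variation of the summed CPM was 18.2% in OsxCre and 10.3% in OsxCre;Stat3fl/fl, and the lowest OsxCre;Stat3fl/fl library exceeded the highest control by a factor of 2.01.

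Genes on either side of the clusters were read for comparison. Only tested genes whose symbol had a RefSeq position were considered, so that nearer genes under other symbols may have been passed over. The 20 nearest of these, 5 on each side of each cluster, lay 29.7 to 4008 kb away. Of the 20, 1 rose and 0 fell at adjusted p under 0.05 (edgeR; 4 rose and 2 fell at an unadjusted p under 0.05, and DESeq2 and limma-voom each found 1 higher and 0 lower). Over all genes, 0.776% rose and 0.481% fell at adjusted p under 0.05 (edgeR), and the share at the unadjusted p was not counted. The gene that rose was Pdlim5, which encodes a PDZ and LIM domain protein of the actin cytoskeleton, 101 kb before Gbp5 (log2 fold change 0.63, SE 0.11, adjusted p = 0.0433, edgeR), and it passed in none of the fits that left out 1 library. The other flanking genes had log2 fold changes between -0.90 (Zfp951, adjusted p = 0.0891, edgeR) and 0.73 (Lrrc8b, adjusted p = 0.201), and 11 of the 20 were positive.

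**Figure D3:**
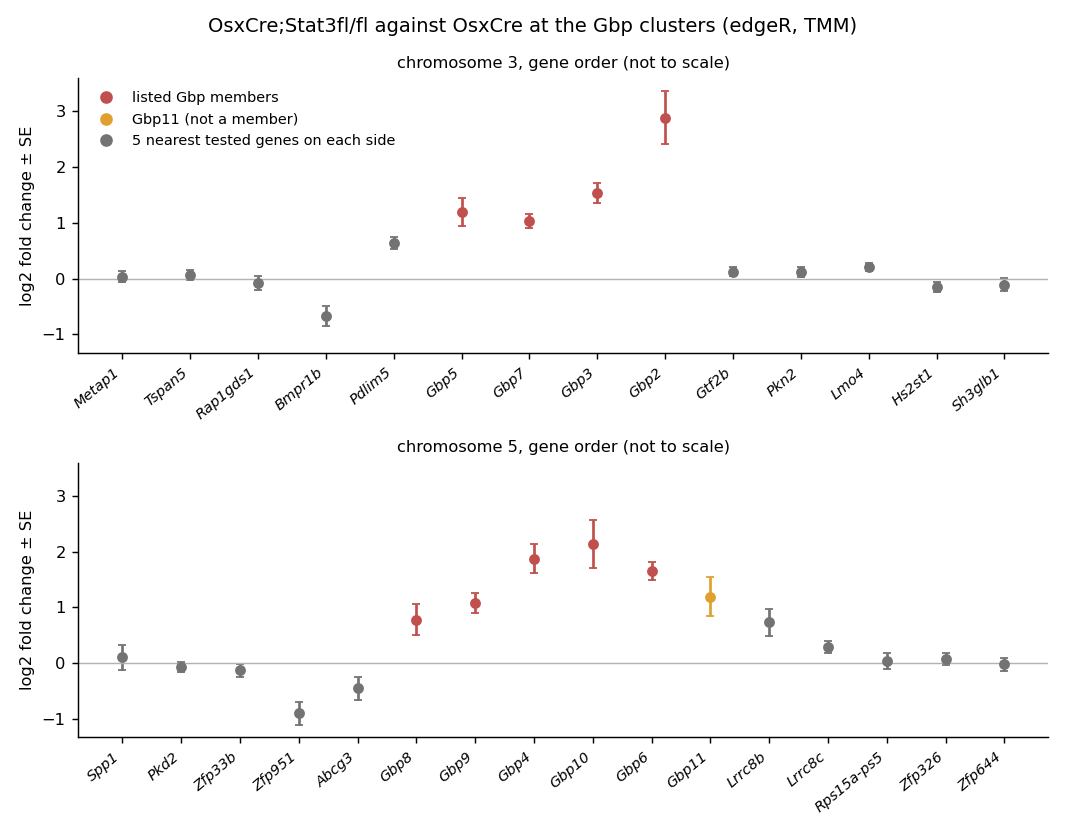
Log2 fold change (OsxCre;Stat3fl/fl over OsxCre, ± SE) of the members (red), Gbp11 (orange) and the 5 nearest tested genes with a RefSeq position on each side (grey), in gene order along each chromosome and not to scale. Members lie between 0.78 and 2.89 and the grey neighbours between -0.90 and 0.73; Gbp2b had too few counts to be drawn.

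The other genes of the interferon and GBP pathways were taken from 11 lists with 123 genes, of which 99 could be tested. Of these, 14 rose and 0 fell at adjusted p under 0.05 (edgeR), against 0.776% and 0.481% of all genes, and 73 of the 99 had a positive log2 fold change. The lists were chosen with earlier results of these data known, so that this comparison is not independent of the choice. DESeq2 called 22 of them higher and 0 lower (304 and 235 of all 15600 genes), and limma-voom 13 and 0 (118 and 62). At an unadjusted p under 0.05, 42 rose and 3 fell. The share of all genes at that unadjusted p was not counted, so such counts, here and for the single lists below, have no share to be set against. The number of pathway genes that rose at adjusted p under 0.05 (edgeR) was smaller in every fit that left out 1 library. Over all genes the number that rose dropped too, from 121 to between 7 and 67, and part of this loss comes with the smaller number of samples. Among the pathway genes it was 4 without OsxCre library 1, 6 without OsxCre library 2 and 10 without OsxCre library 3. It was 4 without OsxCre;Stat3fl/fl library 1, 11 without library 2 and 3 without library 3. Igtp, Iigp1 and Tgtp1 passed in all 6 of these smaller fits.

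Ligands came first. None of the 9 interferon genes listed could be tested, and Ifng, which encodes interferon-gamma, had 1 count in 1 library and 0 in the other 5. Ifna2 and Ifnk also had 1 count in total, and Ifnb1, Ifna1, Ifna4, Ifne, Ifnl2 and Ifnl3 had 0. A count of 0 still allows an expected count of up to 3 in a library. Interferon transcripts were thus at or under the detection limit at this depth, which does not show that they were absent.

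For the receptors, 0 of 6 genes rose or fell (edgeR; 1 higher and 1 lower at an unadjusted p under 0.05, 0 by DESeq2 and limma-voom). Ifngr1, the ligand-binding chain of the interferon-gamma receptor, was at 70.5 to 81.9 CPM in OsxCre and 84.5 to 101 CPM in OsxCre;Stat3fl/fl (adjusted p = 0.241, edgeR), and Ifngr2, the signalling chain, at 74.3 to 84.8 and 61.5 to 66.8 CPM (adjusted p = 0.149). Neither passed, and the libraries did not overlap for either chain. The separation was upward for Ifngr1, as for 10.8% of all genes tested. It was downward for Ifngr2, and the share of all genes in that direction was not counted. Of the 8 brakes on the pathway, 0 rose or fell (1 higher and 0 lower at an unadjusted p under 0.05, 0 by DESeq2 and limma-voom), and Socs1, which inhibits the JAK kinases, was at 9.99 to 10.8 CPM in OsxCre and 6.78 to 9.81 CPM in OsxCre;Stat3fl/fl (adjusted p = 0.568, edgeR).

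Among 13 signal transducers and transcription factors, 3 rose and 0 fell (8 and 0 at an unadjusted p under 0.05; DESeq2, which gave Batf2 no adjusted p, called 2 and 0, and limma-voom 3 and 0). The median log2 fold change was 0.41. Irf7, a regulator of type I interferon genes, was at 13.4, 15.5 and 15.4 CPM in OsxCre and 25.8, 23.2 and 28.0 CPM in OsxCre;Stat3fl/fl (log2 fold change 0.80, SE 0.12, adjusted p = 0.0279, edgeR). Nlrc5, the transactivator of MHC class I genes, was near the detection limit in the controls at 0.571, 0.397 and 1.01 CPM and reached 4.44, 4.17 and 2.69 CPM (log2 fold change 2.47, SE 0.39, adjusted p = 0.0327). Batf2, an interferon-inducible basic leucine zipper factor, was as scarce (log2 fold change 2.27, SE 0.39, adjusted p = 0.0423). Irf7 and Nlrc5 each passed in 1 of the 6 fits that left out 1 library and Batf2 in 0.

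IRF1, IRF8, IRF9 and STAT2 act at ISRE, and their genes did not pass. The log2 fold changes were 0.20 for Irf1 (adjusted p = 0.299, edgeR), 0.41 for Irf9 (adjusted p = 0.0954), 0.62 for Irf8 (adjusted p = 0.0861) and 0.22 for Stat2 (adjusted p = 0.360). The libraries of the groups did not overlap for Irf1, Irf8 and Irf9, whereas those of Stat2 did. Such an upward separation was seen for 10.8% of all genes tested. The kinase genes Jak1 (0.10, adjusted p = 0.647) and Jak2 (0.00, adjusted p = 0.990) had log2 fold changes near 0. Without scaling of the libraries, Irf1 (-0.17), Stat2 (-0.15), Jak1 (-0.28) and Jak2 (-0.38) were negative, as was Ifngr1 (-0.12).

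The immunity-related GTPases, the other interferon-inducible GTPase family that acts on pathogen vacuoles, held the most genes that rose. Of 16 listed, 9 could be tested, 6 rose and 0 fell (7 and 0 at an unadjusted p under 0.05; 7 and 0 by DESeq2, 6 and 0 by limma-voom), and all 9 were positive with a median log2 fold change of 1.55. Iigp1 (Irga6), an effector that coats the vacuole, was at 4.95, 4.76 and 8.64 CPM in OsxCre and 45.4, 39.2 and 44.9 CPM in OsxCre;Stat3fl/fl (log2 fold change 2.81, SE 0.22, adjusted p = 0.00363, edgeR). The regulatory members, which hold the effectors inactive on the cell's own membranes, differed less. Of these, Irgm2 did not pass (log2 fold change 0.68, SE 0.17, adjusted p = 0.118, edgeR). Igtp (Irgm3) was at 16.7, 18.04 and 14.2 CPM in OsxCre and 58.0, 44.5 and 40.7 CPM in OsxCre;Stat3fl/fl (log2 fold change 1.55, SE 0.16, adjusted p = 0.00875), and Irgm1 at 21.5, 15.8 and 19.1 CPM and 47.8, 36.5 and 42.5 CPM (log2 fold change 1.17, SE 0.15, adjusted p = 0.0170).

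Tgtp1 (log2 fold change 3.55, SE 0.30, adjusted p = 0.00403, edgeR) and Tgtp2 (3.80, SE 0.49, adjusted p = 0.0180) are near-identical copies, so that the division of reads between them is uncertain. Both were under 1.2 CPM in every OsxCre library and between 5.73 and 9.73 CPM in every OsxCre;Stat3fl/fl library. Gm12250 (Irgb10), an effector that acts downstream of GBPs on bacterial membranes, was at 0.666 to 0.991 CPM and 4.54 to 6.24 CPM (log2 fold change 2.60, SE 0.28, adjusted p = 0.0110). Irgm1 and Gm12250 each passed in 4 of the 6 fits that left out 1 library and Tgtp2 in 3.

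Of 12 interferon-gamma-inducible genes of antigen processing and chemokines, 1 rose and 0 fell (7 and 0 at an unadjusted p under 0.05; 4 and 0 by DESeq2, 0 and 0 by limma-voom), with 11 positive and a median log2 fold change of 0.46. The gene that rose was Cxcl9, a chemokine that attracts T cells, at 0.761, 0.991 and 2.69 CPM in OsxCre and 24.0, 9.68 and 12.4 CPM in OsxCre;Stat3fl/fl (log2 fold change 3.34, SE 0.52, adjusted p = 0.0301, edgeR). It passed in 2 of the 6 fits that left out 1 library. Of 20 antiviral genes of the type I interferon response, 3 rose and 0 fell (14 and 0 at an unadjusted p under 0.05; 6 and 0 by DESeq2, 3 and 0 by limma-voom), all 20 were positive, and the median was 0.62. Those that rose were Oasl2 (log2 fold change 1.00, SE 0.13, adjusted p = 0.0180), Rtp4 (1.01, SE 0.17, adjusted p = 0.0423) and Bst2, which encodes the virus tether tetherin (0.67, SE 0.12, adjusted p = 0.0445), and each passed in 1 of the 6 smaller fits. Rtp4 did not pass with scaling by library totals (adjusted p = 0.0524), nor Bst2 without scaling (adjusted p = 0.198).

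The machinery that carries GBPs to membranes and acts after them gave few calls. Of 13 genes of ubiquitin-like conjugation and vacuole targeting, 1 rose and 0 fell (3 and 0 at an unadjusted p under 0.05; 3 and 0 by DESeq2, 1 and 0 by limma-voom), with a median of 0.06. This was Sqstm1, the autophagy receptor p62, at 257, 243 and 234 CPM in OsxCre and 315, 340 and 352 CPM in OsxCre;Stat3fl/fl (log2 fold change 0.46, SE 0.08, adjusted p = 0.0453, edgeR), which passed in 0 of the 6 smaller fits. It did not pass with scaling by library totals (log2 fold change 0.41, adjusted p = 0.0597) or without scaling (0.08, adjusted p = 0.564). Among 7 inflammasome genes 0 rose or fell (0 also at an unadjusted p under 0.05, and by DESeq2 and limma-voom), with a median of -0.05. Of 8 genes of the prenylation machinery 0 rose or fell (edgeR; 1 higher and 2 lower at an unadjusted p under 0.05, 0 by DESeq2 and limma-voom) and 1 was positive, with a median of -0.14. The 3 atlastin genes, relatives of GBPs that fuse membranes of the endoplasmic reticulum, were all slightly negative and 0 passed (edgeR; 0 also at an unadjusted p under 0.05, and by DESeq2 and limma-voom).

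**Figure D4:**
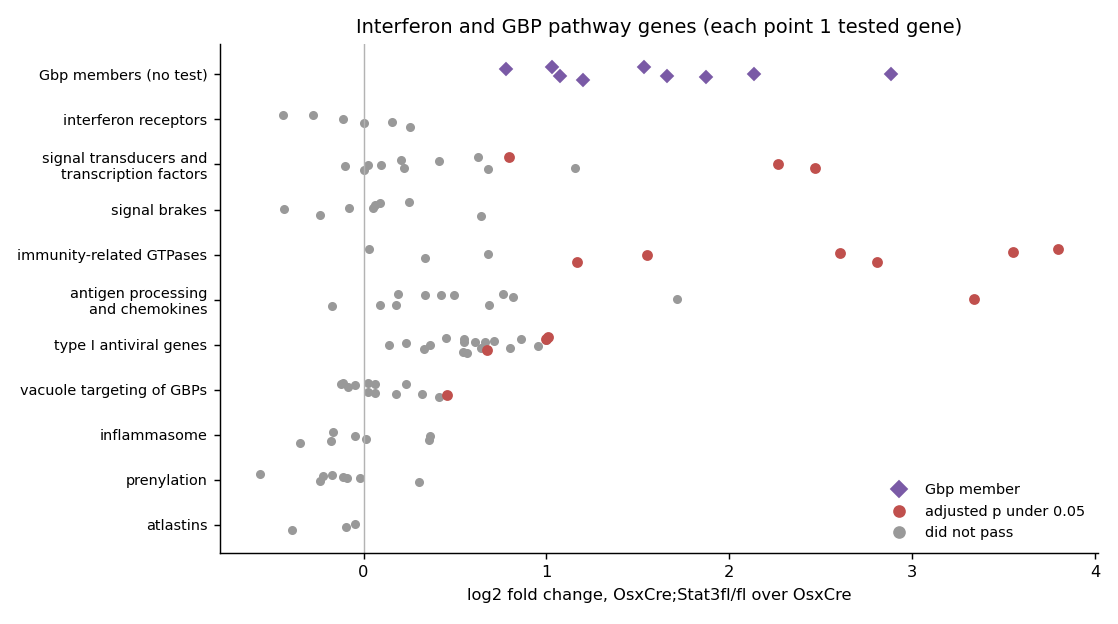
Log2 fold change (OsxCre;Stat3fl/fl over OsxCre) of each tested gene of 10 pathway lists (points, red where adjusted p was under 0.05 by edgeR) and of the 9 members (diamonds, not tested). The red points number 14, of which 6 are immunity-related GTPases, and the receptor, brake, inflammasome, prenylation and atlastin lists hold none.

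The ISRE core was also counted in the promoters of these genes. It was present in 6 of the 10 genes that rose and had a RefSeq promoter window, in 16 of the 64 that were tested and did not pass, and in 1079 of all 27025 genes (3.99%). Of the 9 members, the 4 with a window used here held it. These are counts of letters, and no binding was measured.

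The genes with profiles most like that of the summed members over the 6 libraries were sought by the root mean square (RMS) difference in log2(CPM + 1), each profile centred on its OsxCre mean. The 10 closest genes were, in order, Clca1 (RMS 0.138), Mt1 (0.182), Gm5970 (0.198), Hist1h1c (0.203), Irgm1 (0.212), Hmox1 (0.215), Sult1a1 (0.217), Ms4a4a (0.220), H2-Q6 (0.230) and Serpina3g (0.235), against a median of 1.02 over all genes. The members themselves ranged from 0.131 (Gbp3) to 0.550 (Gbp8), each being part of the sum. This measure takes in the difference between the genotypes, so that a gene with a similar difference scores as alike and an unchanged gene does not. The members were chosen on that difference. Gm5970 was near the detection limit in OsxCre, at 0, 0 and 0.420 CPM. Only Irgm1 of the 10 was in a pathway list. The lists held no H2 gene and no Serpina3 gene, so that H2-Q6 and Serpina3g could not be in one. Mt1, a metal-binding metallothionein, was at 54.2 ± 10.6 CPM in OsxCre and 158 ± 9.64 CPM in OsxCre;Stat3fl/fl (SD, n = 3), and Hmox1, which encodes the haem-degrading enzyme heme oxygenase 1, at 68.5 ± 10.6 and 204 ± 33.9 CPM. Clca1, of a family of chloride channel regulators, was at 4.63 ± 0.847 and 15.4 ± 1.06 CPM, and the gene that carries this symbol in RefSeq lies 2.37 Mb from the chromosome 3 cluster. H2-Q6, a non-classical MHC class I gene, was scarce and has close copies. The ISRE core was found in 1 of the 6 of these genes with a promoter window.

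**Figure D5:**
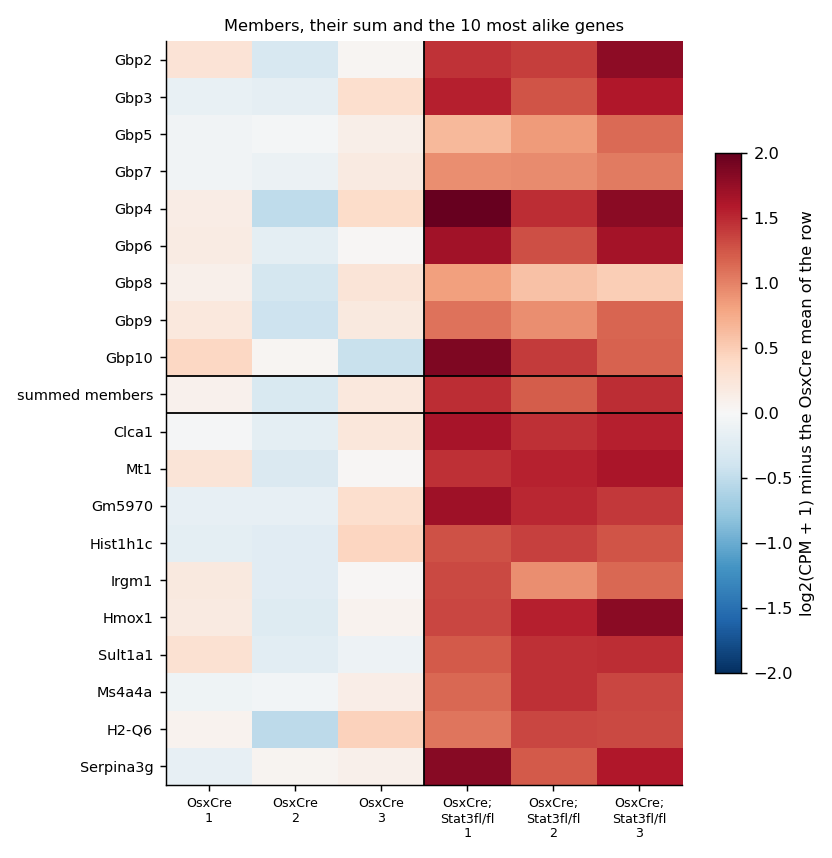
Centred log2(CPM + 1) of the 9 members, their sum and the 10 most alike genes (rows) in each library (columns), as the difference from the row's OsxCre mean (colour scale from -2 to 2, values beyond it drawn at its ends). All rows are higher in the 3 OsxCre;Stat3fl/fl libraries, and Gbp8 has the palest row of the members.

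Marker genes of the cell types that bone samples can hold were summed beside the members. Macrophage markers, 7 genes that include Csf1r, Cd68 and Lyz2, summed to 343 to 356 CPM in OsxCre and 357 to 375 CPM in OsxCre;Stat3fl/fl, a ratio of 1.04 without overlap, and 0 of the 7 passed the test in either direction. T and NK cell markers summed to 4.28 to 5.87 CPM and 4.44 to 6.25 CPM over 9 genes, of which Cd8a was at 0 in every library and Cd3d, Cd3e, Cd3g and Ncr1 had at most 3 counts in any. B cell markers were at 11.01 to 17.5 and 11.8 to 15.4 CPM, dendritic cell markers at 2.78 to 6.04 and 2.04 to 3.86 CPM with Xcr1 at 0, and endothelial markers at 463 to 654 and 565 to 668 CPM. The ratios were 1.03 for T and NK cells, 0.994 for B cells, 0.623 for dendritic cells and 1.11 for endothelial cells. Only 1 of the 9 T and NK cell genes and 1 of the 5 dendritic cell genes had enough counts to be tested.

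Lists that moved without overlap were those of neutrophils, at 245 to 417 CPM in OsxCre and 104 to 169 CPM in OsxCre;Stat3fl/fl (ratio 0.440; S100a9 fell, adjusted p = 0.0423, edgeR), and of skeletal muscle, at 16308 to 17810 and 18502 to 26905 CPM (ratio 1.31), besides the macrophage list. The muscle genes did not move one way, since the embryonic myosin Myh3 rose (log2 fold change 1.71, adjusted p = 0.0204, edgeR) and the fast myosin Myh4 fell (-3.61, adjusted p = 3.87e-05). Nor did the macrophage genes, of which Cd68 (log2 fold change 0.24), Csf1r (0.16), Mrc1 (0.53) and C1qa (0.12) were positive. Emr1 (-0.29), Cd14 (-0.15) and Lyz2 (-0.10) were negative, and the ratio of the macrophage list was 1.008 with library totals. For each of these 3 lists, a two-sided exact permutation test gave p = 0.1, the smallest that 3 against 3 libraries can give, or 0.4 after adjustment over 12 lists. The ratios of the others were 0.884 for osteoblasts, 0.982 for osteoclasts, 0.718 for erythroid cells, 1.18 for keratinocytes and 0.957 for neurons, whose list ran from 15.7 to 229 CPM between libraries. The part of these cell types in the levels of the Gbp genes was not tested.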

How the data were processed

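RNA of newborn parietal bone was sequenced in 6 libraries, grouped by their labels (3 OsxCre, 3 OsxCre;Stat3fl/fl). The deposited values were raw counts per gene and library, made by the authors. The submitters' processing notes name HISAT2 and GRCm38, while the paper's methods describe an alignment to an earlier mouse build and FPKM values, which were not used. The counting program and its handling of strand and of reads shared by gene copies are not given in the sources used here.

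Low genes were removed by filterByExpr at a minimum count of 10 and a minimum total of 15, and the rest scaled by TMM and tested with edgeR 4.0.16 (quasi-likelihood, two-sided, no covariate, Benjamini-Hochberg over 15600 genes, threshold 0.05) in R 4.3.3. CPM are TMM-scaled, except those of Xist. DESeq2 1.42.0, limma-voom (limma 3.58.1), other scalings, no filter, a replicate block and leaving out each library were alternatives, and the fits were first checked on simulated counts. The members and lists were chosen with earlier results of these data known. Named were all members, other Gbp rows, Stat3, the genes of each list that passed (up to 6), background signalling genes (1 is not reported here), flanking genes that passed and the 10 most alike genes. Flanking genes outside that rule were named as extremes after their values were seen, and Irgm2 as the remaining regulatory GTPase. Of 28016 symbols with a count, 21793 were in RefSeq (GRCm38.p6), the source of positions and promoters, and 19465 in GENCODE M1 (mm9), the source of exon lengths and transcripts. Differences between replicates of 1 genotype exceeded sampling noise. Depth limits genes of few counts.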

Additional observations from a re-analysis of the deposited data

How the results depend on the processing

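Without any scaling, which moved the median of all genes to -0.38 (log2) and the calls over all genes from 121 higher and 75 lower to 121 and 5451, the summed Gbp ratio was 2.01, the median log2 fold change of the members 1.15 and that of Stat3 -0.26. Under that setting 17 pathway genes fell, 0 flanking genes rose, the macrophage ratio was 0.801 and the log2 fold changes turned for Stat2 (-0.15), Irf1 (-0.17), Ifngr1 (-0.12), Jak1 (-0.28) and Jak2 (-0.38). Jak2, close to 0 throughout, was also negative with library totals (-0.039) and without a filter (-0.0026), and ranged from -0.074 to 0.053 when 1 library was left out. Scaling by library totals and no scaling each left 12 pathway genes called. DESeq2 raised the number to 22 and all calls to 304 higher and 235 lower, and no filter gave 250 and 178 of 28016 genes. Leaving out 1 library gave 3 to 11 pathway genes, 0 flanking genes, 7 to 67 higher and 5 to 36 lower genes in all, a summed Gbp ratio of 2.39 to 2.85 and a median of 1.43 to 1.67. With fewer libraries, part of this loss comes with the smaller number of samples.

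With the replicate number as a block, 0 pathway genes and 0 flanking genes rose, and over all genes 0 rose and 1 fell (edgeR). Whether the numbers pair littermates is not known. Deviations of same-numbered libraries from their group mean correlated at -0.10, -0.52 and -0.08, and no library correlated best with its own number. With 3 libraries per group, centred on their own mean, these correlations cannot exclude a pairing. The members kept a positive log2 fold change in every alternative run, the lowest being 0.39 for Gbp8 without scaling. These runs used the counts on which the members were chosen, so that the kept direction is a description and not an independent check.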
